A study of Mus musculus with 24 samples.

Results

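Most of the 10 genes described here encode proteoglycans of cartilage or secreted proteins that tie them to collagen, to hyaluronan or to cells. Cytl1, which encodes a cytokine-like protein, and Susd5, whose protein has a hyaluronan-binding domain, are grouped with them. The 10 genes are Acan, Hapln1, Matn1, Matn3, Matn4, Comp, Chad, Epyc, Cytl1 and Susd5. They were chosen by gene symbol, and all 10 were found among the 25844 genes of the joined count tables, with 1 identifier each. Poly-A RNA was sequenced from forelimb buds of CD1 mouse embryos that were dissected on gestation day 13 and kept in culture, with 4 libraries in each of 6 groups. Buds were cultured for 24 h with the solvent DMSO as control, with 1 µM or with 10 µM tert-butylphenyl diphenyl phosphate (BPDP), and for 3 h with the same 3 additions. BPDP belongs to the organophosphate esters, which serve as flame retardants and plasticizers, and the title of the series places the work in hedgehog signalling. The cultured bud is a mixture of cartilage condensations, other mesenchyme, muscle, skin, vessel and blood cells, so in these bulk samples fewer cells of a type and less RNA per cell cannot be told apart. The labels number the replicates 1 to 4 without stating that a number stands for its own litter or culture, so p-values here rest on the spread of these samples, which may be technical.

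Cartilage matrix is built on aggrecan, a core protein that carries chondroitin sulphate chains and binds hyaluronan, and link protein (Hapln1) locks that complex in place. Matrilins and the thrombospondin family protein Comp are adaptors between collagen fibrils and proteoglycans, and chondroadherin and epiphycan are leucine-rich repeat proteins of the matrix. In the limb bud, mesenchymal cells condense, differentiate into chondrocytes and then start to secrete these products, which makes the genes readouts of chondrocyte differentiation. Cytl1 encodes a small secreted cytokine-like protein of chondrocytes, and Susd5 encodes a protein with a sushi domain and a hyaluronan-binding link domain.

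In the mm10 coordinates of the deposited tables, Acan lies on the plus strand at chr7:79053483-79115099, Hapln1 on the plus strand at chr13:89540636-89611832, Comp on the plus strand at chr8:70373548-70382065 and Cytl1 on the plus strand at chr5:37735519-37739820. The matrilin genes lie on 3 chromosomes, Matn1 at chr4:130944385-130955475 and Matn3 at chr12:8947929-8972028 on the plus strand and Matn4 at chr2:164389393-164405160 on the minus strand. Chad lies at chr11:94565047-94569127, Epyc at chr10:97644068-97682454 and Susd5 at chr9:114057354-114098733, all on the plus strand. Chad overlaps Acsf2, which lies on the opposite strand and held 27850 counts over the 24 libraries against 9931 for Chad, and the strandedness of the libraries is not given in the sources used here, so reads from the overlap of the 2 genes cannot be told apart. The other overlaps on the opposite strand were small, with 58 counts for the pseudogene Gm8546 against 118514 for Hapln1, and 967 for Rbpjl against 181025 for Matn4.

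Total counts ran between 14165947 and 20823058 per library. The lowest count of any of the 10 genes in any library was 92, for Epyc, and all 10 genes passed the filter on low counts in every fit. Levels are given as CPM, the count scaled by the total of its library. The 12 limb mesenchyme markers were all detected in every group and summed to between 1316 and 2092 CPM. No library stood apart from the other 3 of its group for any of the 10 genes by Dixon's test in 60 gene and group combinations. In most of them the libraries split into a high and a low pair, where this test can seldom flag a library.

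Per length, as the deposited FPKM, the order of the 10 genes differed between 24 h and 3 h. In the 24 h controls Matn1 had the highest mean, 177 ± 57.0 FPKM (SD, n = 4), followed by Matn4 at 127 ± 35.2, Cytl1 at 105 ± 17.9, Hapln1 at 65.0 ± 13.3, Comp at 61.5 ± 13.9 and Acan at 48.7 ± 11.97 FPKM. Susd5 followed at 29.6 ± 4.12 FPKM, and Epyc, Matn3 and Chad lay close together at 20.5 ± 9.36, 18.2 ± 10.3 and 18.1 ± 3.85 FPKM. Among neighbours in that order, only the libraries of Acan and Susd5 did not overlap. In the 3 h controls the order began with Matn4 at 80.3 ± 18.8 FPKM, ahead of Matn1 at 61.9 ± 19.6 and Cytl1 at 47.8 ± 13.9, and the libraries of every pair of neighbours overlapped. With 1 µM BPDP at 24 h Cytl1 had the highest mean of the 10 genes, 211 ± 23.3 FPKM, beside Matn1 at 193 ± 29.7 FPKM, and the libraries of both lay above those of Matn4. With 10 µM at 24 h Matn1, Cytl1 and Matn4 were at 182 ± 60.0, 160 ± 14.6 and 147 ± 28.7 FPKM with overlapping libraries, and all 3 lay above Hapln1 at 83.8 ± 15.2 FPKM.

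**Figure D1:**
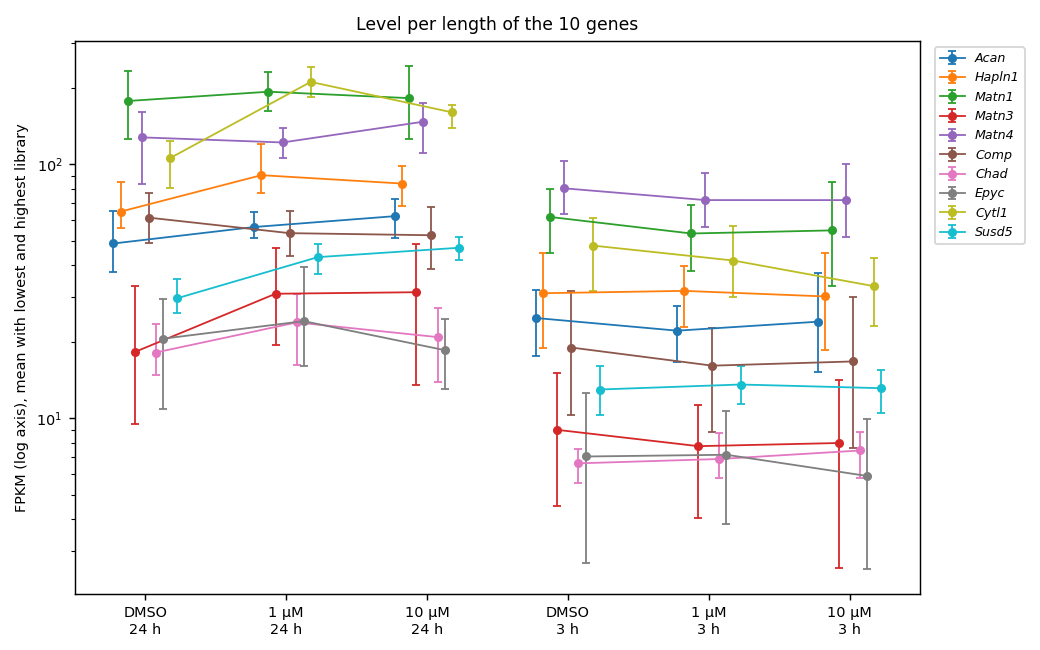
Mean FPKM on a log axis, with bars that span the lowest to the highest of 4 libraries, for the 10 genes in the 3 dose groups at 24 h and at 3 h; lines join the doses of 1 gene at 1 time. The 24 h points lie above the 3 h points of the same gene, and Cytl1 has the highest mean only with 1 µM at 24 h (211 FPKM).

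The 24 h and 3 h controls were compared to show how the genes moved during culture without BPDP. All 10 genes had a higher mean after 24 h, and 8 of the 10 rose at an adjusted p under 0.05, against 5.45% of the 15640 genes tested that rose by the same rule. The libraries of the 2 times did not overlap for 7 of the 10, against 6.91% of all genes that were higher without overlap. The median log2 difference of the 10 genes was 1.19, against 0.01 for all genes tested. All tests over time and dose that follow are edgeR quasi-likelihood tests with Benjamini-Hochberg adjustment over all genes, unless another source is named. Errors of log2 differences are SE, taken as the absolute log2 difference over the square root of its F statistic.

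Aggrecan, the core of the complex, had 357, 481, 278 and 317 CPM (replicates 1 to 4) in the 24 h controls, against 236, 207, 157 and 129 CPM in the 3 h controls. Every 24 h library was above every 3 h library, and Acan rose by 0.99 ± 0.18 on the log2 scale (edgeR adjusted p = 0.00451). Its partner Hapln1 had 309, 428, 284 and 293 CPM in the 24 h controls, against 226, 196, 109 and 95.5 CPM in the 3 h controls. The groups again did not overlap, and the gene rose by 1.09 ± 0.26 on the log2 scale (edgeR adjusted p = 0.0357).

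The matrilins, which form filaments around collagen fibrils, all had higher means at 24 h, and Matn3 did not pass. Their rises were not tested against each other. Matn1 had 438, 467, 252 and 261 CPM in the 24 h controls, against 159.5, 156, 89.2 and 90.7 CPM in the 3 h controls, with all 24 h libraries higher, and rose by 1.54 ± 0.27 on the log2 scale (edgeR adjusted p = 0.0102). Matn4 had 622, 658, 343 and 472 CPM in the 24 h controls, against 363, 424, 261 and 273 CPM in the 3 h controls. The groups overlapped, since replicate 3 at 24 h lay below replicates 1 and 2 at 3 h, and the rise was 0.68 ± 0.19 (edgeR adjusted p = 0.0449). Matn3 had 47.0, 100.02, 28.6 and 43.8 CPM in the 24 h controls, against 45.2, 34.4, 15.1 and 13.6 CPM in the 3 h controls. These groups overlapped widely and its log2 difference of 1.02 ± 0.51 did not pass (edgeR adjusted p = 0.285). It was 1.10 ± 0.24 and passed with a term that set replicates 1 and 2 apart from 3 and 4 (edgeR adjusted p = 0.0218), as it did within replicates 3 and 4 (0.000956) but not within replicates 1 and 2 (0.323). The labels do not give this split of the numbers. It follows a difference in the levels of these same genes, so passes that use it, here and below, are not independent support.

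Comp, which binds collagens and matrilins, had 169, 186, 122 and 119 CPM in the 24 h controls, against 76.5, 56.9, 25.0 and 25.5 CPM in the 3 h controls. All 24 h libraries were higher, and Comp rose by 1.72 ± 0.40 on the log2 scale (edgeR adjusted p = 0.0422). Chad, whose protein chondroadherin binds cells and collagen, had 30.4, 39.5, 24.8 and 27.1 CPM in the 24 h controls, against 12.7, 12.5, 10.0 and 9.34 CPM in the 3 h controls. The groups did not overlap, and Chad rose by 1.46 ± 0.15 on the log2 scale (edgeR adjusted p = 0.000127). Epyc, a small leucine-rich proteoglycan of the epiphysis, had 75.0, 69.9, 27.7 and 36.0 CPM in the 24 h controls, against 31.9, 22.2, 6.83 and 10.8 CPM in the 3 h controls. Replicate 3 at 24 h lay below replicate 1 at 3 h, and the log2 difference of 1.56 ± 0.56 did not pass (edgeR adjusted p = 0.147).

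Cytl1 had 78.4, 108, 105 and 119.7 CPM in the 24 h controls, against 59.5, 56.0, 39.7 and 30.9 CPM in the 3 h controls, and Susd5 had 101, 137, 107 and 114 CPM in the 24 h controls, against 62.0, 56.3, 42.8 and 39.8 CPM in the 3 h controls. Neither gene's groups overlapped. Cytl1 rose by 1.17 ± 0.18 (edgeR adjusted p = 0.00234) and Susd5 by 1.21 ± 0.12 on the log2 scale (edgeR adjusted p = 0.000127). The calls of Acan, Matn1, Chad, Cytl1 and Susd5 held when any 1 of the 8 libraries was left out. Those of Hapln1 and Comp held only without replicate 1 of the 3 h controls and those of Matn4 only without replicate 2 at 3 h or replicate 3 at 24 h, with adjusted p up to 0.0949, 0.104 and 0.138 in the removals. Within replicates 3 and 4 alone all 10 genes passed, and within replicates 1 and 2 alone 4 did, Matn1, Comp, Chad and Epyc.

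The same comparison within each BPDP dose showed larger median differences. With 1 µM BPDP all 10 genes rose between 3 h and 24 h, against 12.2% of 15462 genes, and with 10 µM 9 of 10 rose, against 16.8% of 15434 genes. The libraries of the 2 times did not overlap for 10 of 10 genes with 1 µM and for 9 of 10 with 10 µM, where 12.5% and 11% of all genes were higher without overlap. The median log2 difference was 1.74 with 1 µM and 1.76 with 10 µM. Cytl1 rose by 2.33 ± 0.20 with 1 µM (edgeR adjusted p = 7.71e-05) and by 2.38 ± 0.19 with 10 µM (edgeR adjusted p = 2.78e-05), the largest rises of the 10 genes at both doses. Susd5 rose by 1.66 ± 0.12 with 1 µM (edgeR adjusted p = 7.36e-07) and by 1.94 ± 0.09 with 10 µM (edgeR adjusted p = 3.21e-09). The gene that did not pass with 10 µM was Matn3, at 2.07 ± 0.67 (edgeR adjusted p = 0.0623), which passed at 1.16e-11 with replicate number as a block. In the removals of 1 library, the calls with 10 µM of Comp and Epyc were lost without replicate 2 or 4 at 3 h and without replicate 1 or 2 at 24 h (edgeR adjusted p up to 0.0709 and 0.0741). With 1 µM the call of Epyc was lost in every removal (edgeR adjusted p up to 0.112), that of Matn3 without replicate 3 or 4 at 3 h and without replicate 1 or 2 at 24 h (up to 0.0849), and that of Comp without replicate 3 at 3 h (0.0529).

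**Figure D2:**
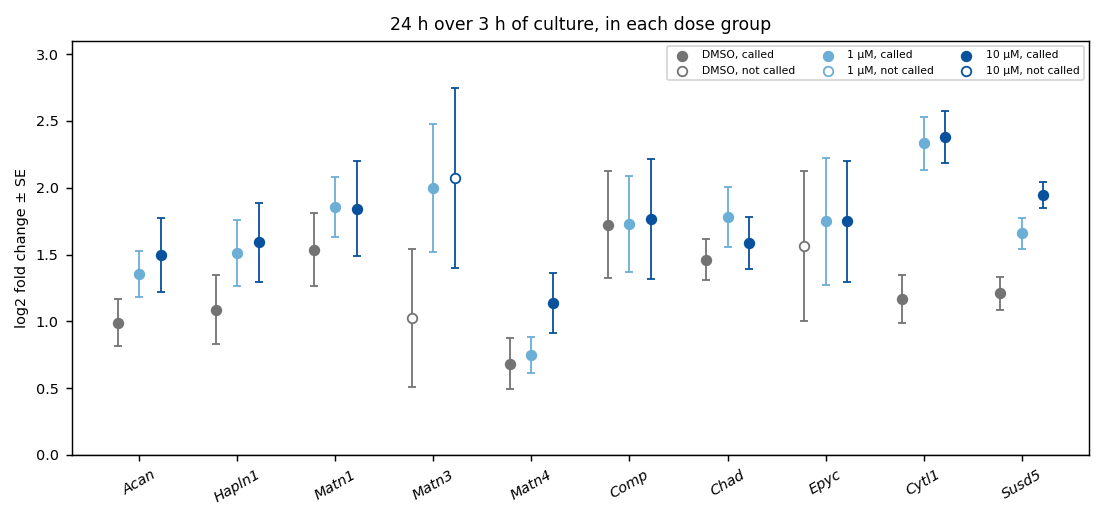
Log2 difference of 24 h over 3 h (points, with bars of 1 SE, n = 4 libraries a group) for the 10 genes in DMSO, 1 µM and 10 µM BPDP; filled points passed at an adjusted p under 0.05. All points lie above 0, with Matn3 and Epyc open in DMSO and Matn3 open with 10 µM.

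Other cartilage matrix genes also rose in the controls. All 7 cartilage collagens rose, among them Col2a1, the main fibrillar collagen of cartilage, by 1.03 ± 0.19 (edgeR adjusted p = 0.0043) and Col9a2 by 0.94 ± 0.14 (0.00139). Of 10 other small leucine-rich proteins 6 rose and 0 fell, led by Aspn (asporin) at 1.53 ± 0.17 (edgeR adjusted p = 0.000251), and of 7 other secreted cartilage proteins tested 4 rose, among them Snorc at 1.71 ± 0.26 (0.00308) and Cnmd (chondromodulin, listed under its older symbol Lect1) at 1.12 ± 0.26 (0.0356). Of 27 genes for chondroitin sulphate synthesis 9 rose and 0 fell, led by the sulphotransferase Chst11 at 0.79 ± 0.10 (edgeR adjusted p = 0.000362) and the sulphate transporter Slc26a2 at 0.60 ± 0.11 (0.00445). Of the 12 tested paralogues of the 10 genes only Chadl and Matn2 passed, at 0.63 ± 0.12 and 0.88 ± 0.18 (edgeR adjusted p = 0.00615 and 0.00925). Among 11 transcriptional regulators 4 rose, including Runx2 at 0.62 ± 0.14 (edgeR adjusted p = 0.011), while Sox9, the master regulator of chondrocytes, was at -0.17 ± 0.13 (0.442).

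Markers of other cells also differed between the 24 h and 3 h controls. All 7 cycling cell markers fell, with a summed 620.3 to 731 CPM at 24 h against 1049.9 to 1181 CPM at 3 h. Of 10 skeletal muscle markers 7 rose (2283 to 3326 CPM at 24 h, 1469.7 to 1711 CPM at 3 h), and of 8 macrophage markers 6 rose (167 to 226 CPM at 24 h, 89.3 to 113 CPM at 3 h). Of 12 limb mesenchyme markers 3 fell, summing to 1519 to 1669 CPM at 24 h against 1796 to 2035 CPM at 3 h. For these 12 markers DESeq2 called 6 lower, and 8 had an unadjusted edgeR p under 0.05. The share of all genes that fell between these controls is not given here. No marker of these lists was at 0 in any group, and their part in the rise of the matrix genes was not tested.

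BPDP was then compared with control at 24 h. The 2 genes that rose with 10 µM were Susd5 and Cytl1, 2 of 10, against 2.77% of the 15508 genes tested that rose by the same rule, and no member of the 10 fell (3.44% of all genes did). With 1 µM Cytl1 rose, 1 of 10, against 0.0193% of 15578 genes, a background of 3 genes. Both doses were set against the same 4 control libraries, so their results are not independent of each other.

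Cytl1 had 78.4, 108, 105 and 119.7 CPM in controls (replicates 1 to 4), 179, 234, 204 and 203 CPM with 1 µM and 167, 163, 135 and 157 CPM with 10 µM. All treated libraries lay above all controls, and the means were 103 ± 17.4 CPM in controls, 205 ± 22.7 CPM with 1 µM and 156 ± 14.2 CPM with 10 µM (SD, n = 4 each). The log2 difference was 0.99 ± 0.13 with 1 µM (edgeR adjusted p = 0.00559) and 0.62 ± 0.11 with 10 µM (edgeR adjusted p = 0.00586). Within replicates 1 and 2 the difference with 10 µM was 0.87 ± 0.14 (edgeR adjusted p = 0.178) and within replicates 3 and 4 it was 0.39 ± 0.10 (0.0385). With 1 µM the same differences were 1.19 ± 0.19 (edgeR adjusted p = 0.211) and 0.79 ± 0.09 (0.00459). The call with 10 µM held in all 8 removals of 1 library (edgeR adjusted p up to 0.0278), but not in 1 fit of all 24 libraries (edgeR adjusted p = 0.0638).

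Susd5 had 101, 137, 107 and 114 CPM in controls, 143, 188, 161 and 174 CPM with 1 µM and 189, 199.9, 162 and 175 CPM with 10 µM. The treated and control libraries did not overlap at either dose, and the means were 115 ± 16.0 CPM in controls, 167 ± 19.1 CPM with 1 µM and 181 ± 16.5 CPM with 10 µM. With 10 µM Susd5 rose by 0.68 ± 0.09 on the log2 scale (edgeR adjusted p = 0.000749), with 0.75 ± 0.14 within replicates 1 and 2 (0.187) and 0.62 ± 0.09 within replicates 3 and 4 (0.00263). With 1 µM its log2 difference was 0.53 ± 0.11, which did not pass in the 8 libraries of the comparison (edgeR adjusted p = 0.142) and did in 1 fit of all 24 (0.0435). Groups that were higher without overlap made up 5.63% of all genes with 10 µM and 1.83% with 1 µM, and at both doses Cytl1 and Susd5 were the only such genes of the 10. In the authors' deposited table the adjusted p with 1 µM was 1.64e-09 for Cytl1 and 0.00442 for Susd5.

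**Figure D3:**
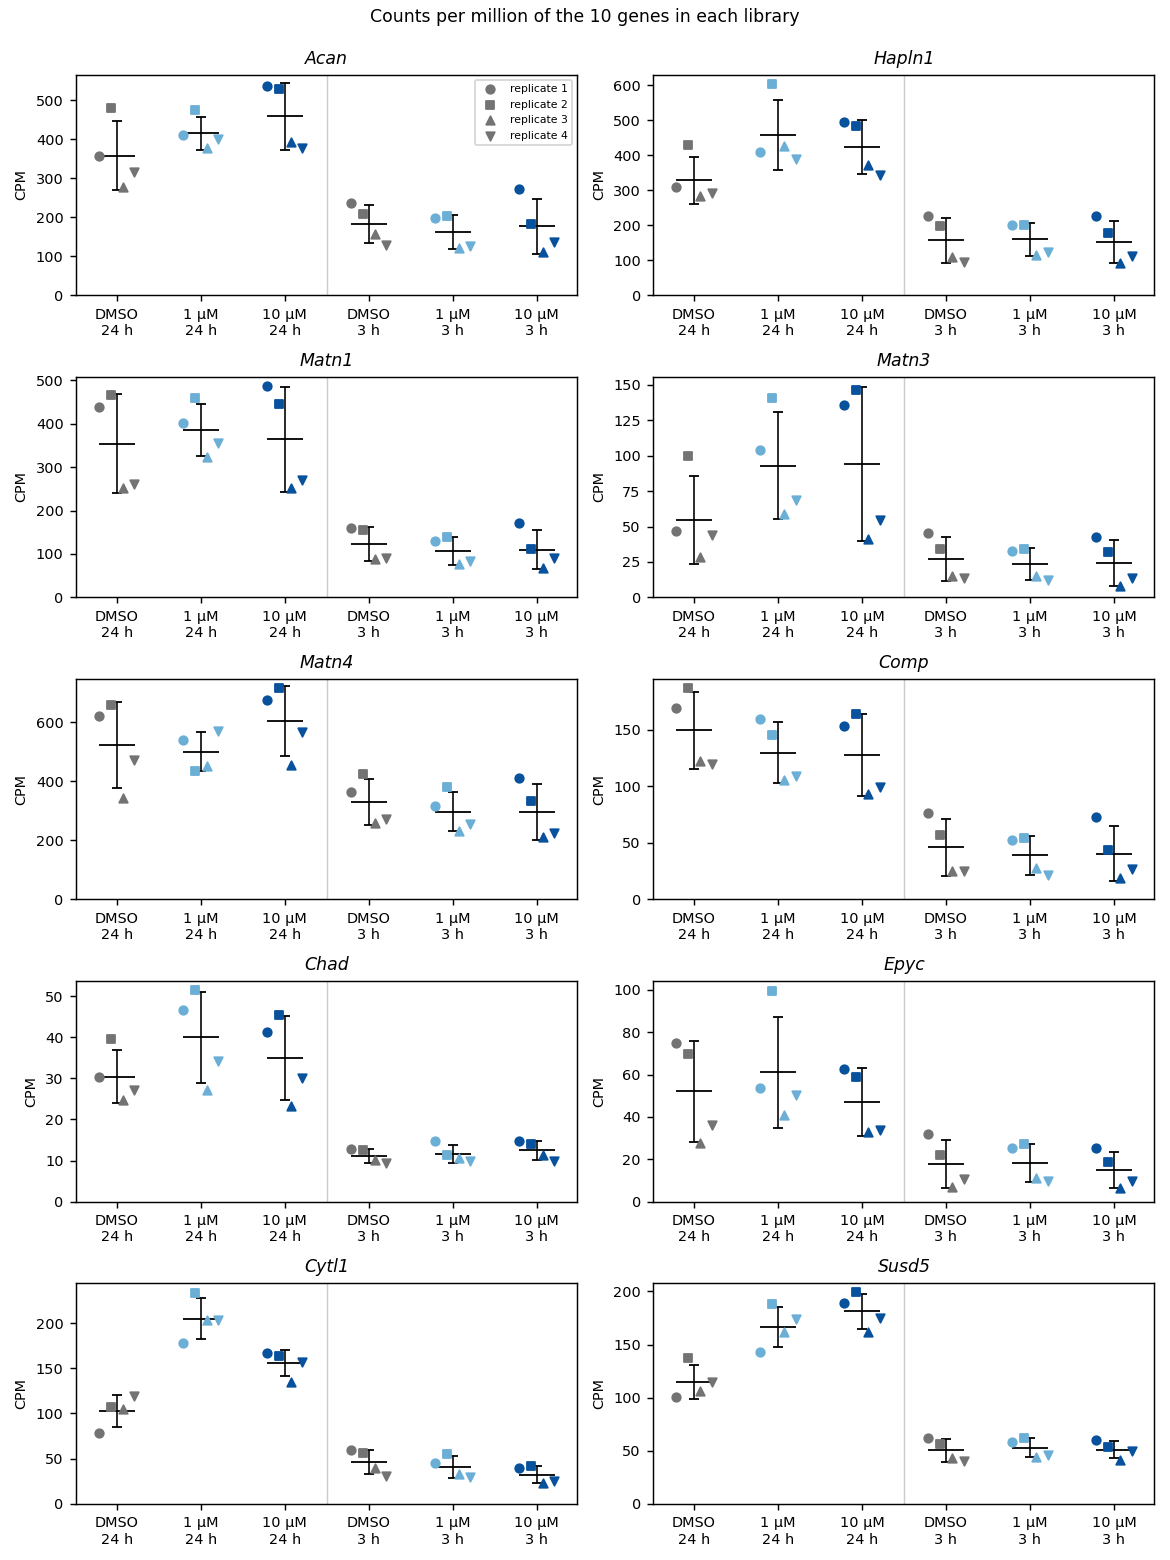
CPM of each gene in each of the 24 libraries, with 1 marker shape per replicate number; horizontal bars and whiskers are the mean ± SD of 4 libraries. At 24 h the treated libraries of Cytl1 and Susd5 lie above all 4 controls, and in most panels replicates 1 and 2 (circles, squares) lie above replicates 3 and 4 (triangles).

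The promoters of Susd5 and Cytl1 are shown because these genes passed in the BPDP comparisons, with that of Matn1, which had a difference near 0, beside them. The 300 bases run from 250 before the start site to 50 after it, on the plus strand of GRCm38.p6. They were taken from a set of RefSeq promoters, and the set used here had entries for 9 of the 10 genes and none for Comp. Capitals mark the hexamer TGTGGT of RUNX factors, or its reverse complement ACCACA. The windows are chr9:114057104-114057403 for Susd5, chr5:37735269-37735568 for Cytl1 and chr4:130944135-130944434 for Matn1.
Susd5: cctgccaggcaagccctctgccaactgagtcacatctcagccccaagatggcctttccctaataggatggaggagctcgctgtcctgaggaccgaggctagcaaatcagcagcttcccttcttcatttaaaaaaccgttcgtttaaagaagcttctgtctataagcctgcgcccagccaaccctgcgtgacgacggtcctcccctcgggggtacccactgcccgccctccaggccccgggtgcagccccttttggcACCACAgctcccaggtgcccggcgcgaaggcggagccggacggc
Cytl1: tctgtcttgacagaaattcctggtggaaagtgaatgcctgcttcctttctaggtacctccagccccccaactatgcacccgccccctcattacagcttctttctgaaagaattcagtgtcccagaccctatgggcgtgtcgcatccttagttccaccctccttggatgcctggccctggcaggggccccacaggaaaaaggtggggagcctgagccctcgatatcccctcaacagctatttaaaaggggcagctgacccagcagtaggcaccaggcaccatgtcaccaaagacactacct
Matn1: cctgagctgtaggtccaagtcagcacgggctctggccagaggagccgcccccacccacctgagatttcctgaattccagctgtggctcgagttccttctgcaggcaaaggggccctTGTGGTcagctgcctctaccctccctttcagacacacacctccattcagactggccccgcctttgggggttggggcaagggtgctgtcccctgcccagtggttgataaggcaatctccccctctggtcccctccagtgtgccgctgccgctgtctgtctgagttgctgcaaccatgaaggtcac

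The motif was searched on both strands because Runx2 and Runx3 were among the regulators that differed between BPDP and control. It was found in the windows of Epyc, Hapln1, Matn1 and Susd5, 4 of 9 genes, and in 16.8% of all 32851 promoters of the same length. Epyc and Matn4 each had 2 windows, so for every motif here the count is by gene and the share by promoter. The count and the share are not like for like. In Susd5 the match began 6 bases after the start site on the minus strand, and in Matn1 it began at -134. The window of Cytl1 held no match. The SOX hexamers ACAATG and ACAAAG were found in 1 of 9 genes (Epyc), against 28.6% of promoters, the FOX heptamer TGTTTAC in 1 of 9 (Epyc), against 3.65%, and the GLI heptamer ACCACCC in 0 of 9, against 4.61%. The share of G and C was 61.7% for Susd5, 55% for Cytl1, 61.3% for Matn1 and 54.3% for Hapln1, and 40.3% and 32.3% for the 2 windows of Epyc, where the median of all promoters was 52.7%.

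The other 8 genes did not pass at 24 h, and their differences from control lay on both sides of 0. With 10 µM 8 of the 10 genes had a positive log2 difference, with a median of 0.30 over the 10 against -0.02 over all genes tested, and with 1 µM the same count was 8 and the median 0.31 against -0.01. Hapln1 had 309, 428, 284 and 293 CPM in controls, 409, 605, 426 and 388 CPM with 1 µM and 496, 483, 371 and 344 CPM with 10 µM. The groups overlapped, with 3 of the 8 treated libraries above the highest control, replicate 2. Its log2 difference was 0.39 ± 0.14 with 10 µM (edgeR adjusted p = 0.123) and 0.48 ± 0.16 with 1 µM (0.608). Hapln1 passed with 10 µM by DESeq2 (adjusted p = 0.0435) and in the authors' deposited table (0.0441). Acan had 357, 481, 278 and 317 CPM in controls, 409.8, 476, 378 and 399.9 CPM with 1 µM and 537, 528, 393 and 377 CPM with 10 µM. The groups overlapped at both doses, and the log2 difference was 0.38 ± 0.15 with 10 µM (edgeR adjusted p = 0.174) and 0.21 ± 0.15 with 1 µM (0.937). With replicate number as a block, 4 genes passed with 10 µM, Acan (edgeR adjusted p = 0.0131) and Hapln1 (0.0143) beside Cytl1 and Susd5. Without replicate 2 of the 24 h controls the same 2 genes passed as well (0.0441 and 0.0294).

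Matn3 had 47.0, 100.02, 28.6 and 43.8 CPM in controls, 104, 141, 58.5 and 68.4 CPM with 1 µM and 136, 146, 40.9 and 54.3 CPM with 10 µM. Replicates 1 and 2 were high and replicates 3 and 4 low in both treated groups, and the groups overlapped, but each treated library exceeded the control of the same number. The log2 difference was 0.82 ± 0.55 with 10 µM (edgeR adjusted p = 0.466) and 0.79 ± 0.45 with 1 µM (0.904). With replicate number as a block Matn3 passed with 1 µM beside Cytl1 (edgeR adjusted p = 0.0352) and not with 10 µM (0.0674).

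The remaining 5 genes passed at neither dose. Matn4 had 622, 658, 343 and 472 CPM in controls, 541, 436, 452 and 572 CPM with 1 µM and 676, 718, 455 and 568 CPM with 10 µM, and Matn1 had 487, 445, 251 and 271 CPM with 10 µM, against 438, 467, 252 and 261 CPM in controls. The groups overlapped throughout, with log2 differences at 10 µM of 0.22 ± 0.19 for Matn4 and 0.06 ± 0.28 for Matn1 (edgeR adjusted p = 0.552 and 0.943). Comp had 153, 164, 93.4 and 99.0 CPM with 10 µM, against 169, 186, 122 and 119 CPM in controls, and was the gene with a negative difference at both doses, -0.21 ± 0.21 with 10 µM (edgeR adjusted p = 0.631) and -0.21 ± 0.18 with 1 µM (0.952). Chad averaged 30.4 ± 6.47 CPM in controls, 40.0 ± 11.2 CPM with 1 µM and 35.0 ± 10.2 CPM with 10 µM, and Epyc averaged 52.1 ± 23.8 CPM in controls, 61.2 ± 26.2 CPM with 1 µM and 47.0 ± 15.9 CPM with 10 µM. Both overlapped with control at both doses, and the difference of Epyc was negative with 10 µM (-0.13 ± 0.38) and positive with 1 µM (0.23 ± 0.43). Leaving out 1 library moved the sign of Epyc at both doses, with ranges of -0.32 to 0.14 with 10 µM and -0.12 to 0.49 with 1 µM. It also moved that of Matn1 at both doses (-0.11 to 0.21 with 10 µM, -0.0048 to 0.27 with 1 µM) and that of Matn4 with 1 µM (-0.22 to 0.047).

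**Figure D4:**
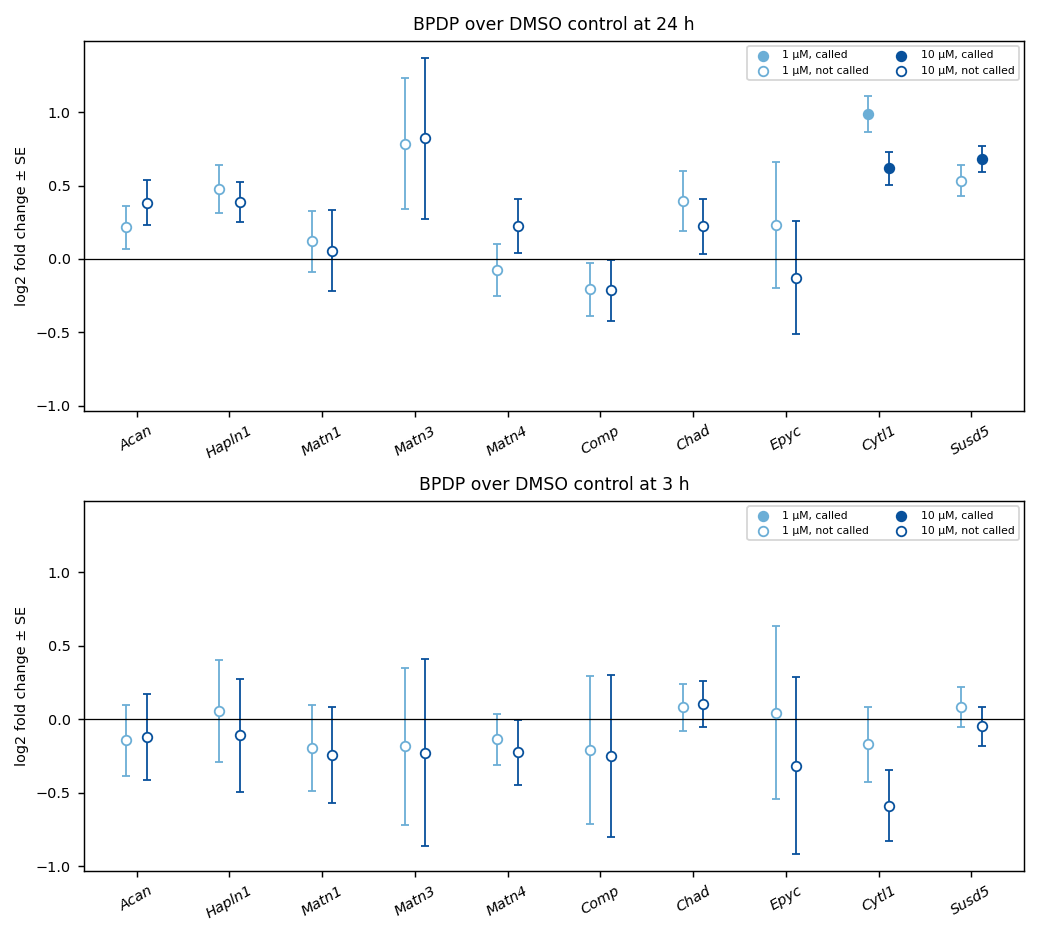
Log2 difference of BPDP over DMSO control (points, with bars of 1 SE, n = 4 libraries a group) for the 10 genes at 24 h (upper panel) and 3 h (lower panel), with 1 µM left of 10 µM; filled points passed at an adjusted p under 0.05. At 24 h Cytl1 is filled at both doses and Susd5 with 10 µM, and at 3 h no point is filled.

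Other genes of the matrix and its regulation moved in both directions with 10 µM at 24 h, where 6.21% of all genes passed. In the edgeR test 0 of the 7 cartilage collagens passed, 3 had an unadjusted p under 0.05 and DESeq2 called 1, and Col2a1 was at 0.43 ± 0.18 (edgeR adjusted p = 0.208). Of 27 genes for chondroitin sulphate synthesis 5 rose and 1 fell, with Chst11 at 0.51 ± 0.09 (edgeR adjusted p = 0.00475), the chain-starting enzyme Csgalnact2 at 0.62 ± 0.14 (0.0161) and the uronyl sulphotransferase Ust at -0.46 ± 0.12 (0.0352). Of 12 paralogues tested 2 rose, the brain proteoglycan Bcan by 1.86 ± 0.37 (edgeR adjusted p = 0.0109) and Thbs1 by 0.48 ± 0.12 (0.0335), and of 10 other small leucine-rich proteins 2 fell, Ecm2 by 1.14 ± 0.23 and Aspn by 0.71 ± 0.15 on the log2 scale (edgeR adjusted p = 0.0105 and 0.0147). The hyaluronan list had 0 that rose and 2 of 9 that fell, the receptor Stab2 at -2.61 ± 0.57 and the synthase Has3 at -0.91 ± 0.25 (edgeR adjusted p = 0.017 and 0.0456). Snorc was the 1 of 8 other secreted cartilage proteins that passed, at -0.62 ± 0.16 (edgeR adjusted p = 0.041), and the aggrecan-cleaving protease Adamts1 the 1 of 11 proteases and inhibitors, at 0.41 ± 0.11 (0.0443).

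Among the 11 transcriptional regulators of cartilage 2 rose and 2 fell with 10 µM. Runx3 and Runx2, which drive chondrocyte maturation, fell by 1.90 ± 0.20 and 0.83 ± 0.15 on the log2 scale (edgeR adjusted p = 0.000341 and 0.00586), and Arid5b and Sox6, partners of Sox9, rose by 0.49 ± 0.12 and 0.36 ± 0.10 (0.0272 and 0.0496). Sox9 was at 0.28 ± 0.12 (edgeR adjusted p = 0.217). Of 7 hypertrophic chondrocyte markers Ihh, the hedgehog ligand of prehypertrophic chondrocytes, rose by 1.85 ± 0.14 (edgeR adjusted p = 5.68e-05) and Pth1r by 0.59 ± 0.09 (0.00175). With 1 µM, 0.077% of all genes passed and Runx3 at -2.08 and Ihh at 1.49 (edgeR adjusted p = 0.00119 and 0.000447) were the list genes that did.

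Markers of other cells moved with 10 µM at 24 h as well. All 7 cycling cell markers fell, summing to 340.2 to 374 CPM with 10 µM against 620.3 to 731 CPM in controls, as did 6 of 8 macrophage markers (56.4 to 85.8 CPM with 10 µM, 167 to 226 CPM in controls) and 4 of 7 endothelial markers (168 to 200.06 CPM with 10 µM, 260.1 to 311 CPM in controls). The limb mesenchyme markers summed to 1532 to 1698 CPM with 10 µM and 1519 to 1669 CPM in controls, and 2 of 12 fell, as did 2 of 7 epidermal and 1 of 10 muscle markers. Of 6 tendon and joint markers 2 rose and 1 fell. Of 6 erythroid markers 0 passed in the edgeR test, 0 had an unadjusted p under 0.05 and DESeq2 called 0. With 1 µM the cycling cell markers summed to 476 to 564 CPM, where edgeR called 0 of 7, all 7 had an unadjusted p under 0.05 and DESeq2 called 2. The macrophage markers summed to 157 to 228 CPM with 1 µM, where edgeR and DESeq2 called 0 of 8 and 0 had an unadjusted p under 0.05. No marker of these lists was at 0 in any group. The part of these cells in the levels of the 10 genes was not tested.

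The 2 doses were compared with each other in the fit of all 24 libraries. In this edgeR test 0 of the 10 genes passed at 24 h, against 3.35% of 16691 genes, and 0 passed at 3 h, against 0%; none had an unadjusted p under 0.05 and DESeq2 called 0. Cytl1 was lower with 10 µM than with 1 µM at 24 h without overlap, 135 to 167 CPM against 179 to 234 CPM, at -0.37 ± 0.21 on the log2 scale (edgeR adjusted p = 0.382). Genes that were lower without overlap made up 7.11% of all. In a fit of the 8 libraries of these groups alone the same difference was -0.37 ± 0.09 and passed (edgeR adjusted p = 0.0383).

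At 3 h BPDP and control libraries overlapped for all 10 genes at both doses, where 9.73% of all genes did not overlap with 10 µM and 2.23% with 1 µM. With 10 µM, edgeR and DESeq2 called 0 of the 10 genes, 1 had an unadjusted p under 0.05, and 0.00644% of 15520 genes passed. With 1 µM 0 passed, 0 had an unadjusted p under 0.05, DESeq2 called 0, and 0% of 15446 genes passed. The gene with the unadjusted p was Cytl1, with 39.2, 41.7, 22.5 and 25.3 CPM with 10 µM, against 59.5, 56.0, 39.7 and 30.9 CPM in controls. Within replicates 1 and 2, and again within replicates 3 and 4, both treated libraries lay below both controls. The difference was -0.59 ± 0.24 over all 8 libraries (edgeR adjusted p = 0.291), -0.56 ± 0.14 within replicates 1 and 2 and -0.64 ± 0.13 within replicates 3 and 4. When a term set replicates 1 and 2 apart from 3 and 4 it was -0.60 ± 0.09 (edgeR adjusted p = 0.00952). With 1 µM at 3 h Cytl1 had 45.0, 55.4, 32.8 and 29.3 CPM, a difference of -0.17 ± 0.25 (edgeR adjusted p = 0.988). Susd5 had 60.1, 53.0, 40.7 and 49.5 CPM with 10 µM, against 62.0, 56.3, 42.8 and 39.8 CPM in the 3 h controls, a difference of -0.05 ± 0.13 (edgeR adjusted p = 0.898). Chad had a positive difference with 10 µM at 3 h (0.10 ± 0.15) and the other 9 a negative one, 6 of which changed sign under an alternative, and the median over the 10 was -0.23 against -0.0048 for all genes tested.

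Whether the effect of BPDP differed between 24 h and 3 h was tested by the difference of the 2 effects in the fit of all 24 libraries. With 10 µM all 10 genes had a positive difference of effects, though those of Comp, Epyc and Chad changed sign under an alternative, and Cytl1 and Susd5 passed, 2 of 10, against 0.983% of 16691 genes in that direction. Cytl1 was at 1.20 ± 0.30 on the log2 scale (edgeR adjusted p = 0.0321) and Susd5 at 0.73 ± 0.17 (0.0172). Acan, at 0.50 ± 0.33 (edgeR adjusted p = 0.543), passed within replicates 3 and 4 (0.00965) and, with a term for replicates 1 and 2 set apart from 3 and 4, at 0.0496. The call of Susd5 held in all 16 removals of 1 library (edgeR adjusted p up to 0.0463). That of Cytl1 held in 7, and was lost without replicate 1 or 2 of the controls at either time, replicate 3 or 4 with 10 µM at 3 h, and replicate 1, 2 or 4 with 10 µM at 24 h (edgeR adjusted p up to 0.0726). With 1 µM 0 of 10 passed in the edgeR test, against 0.0359% of genes, 2 had an unadjusted p under 0.05 and DESeq2 called 1. Cytl1 was at 1.15 ± 0.30 (edgeR adjusted p = 0.633) and Susd5 at 0.44 ± 0.17 (0.9999) with 1 µM.

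The levels of these genes also differed by replicate number. Replicates 1 and 2 both lay above replicates 3 and 4 in 54 of 60 gene and group combinations. They both lay below replicates 3 and 4 in 0. Within a group all genes were measured in the same libraries, so these combinations are not independent. The share of all genes tested that were split in this way is not given here. The ratio of the mean of replicates 1 and 2 to that of 3 and 4 had a median over the 6 groups of 2.61 for Matn3 (1.93 to 3.47), 2.40 for Epyc and 1.92 for Comp. It was near 1.5 for Hapln1 (1.53), Acan (1.48) and Matn4 (1.45), and 1.76 for Matn1. The lowest ratios were those of Chad (1.35), Cytl1 (1.37, with 0.828 in the 24 h controls) and Susd5 (1.20, 0.986 to 1.43). For the summed cartilage collagens the median ratio was 1.36, for the transcriptional regulators 0.959, for limb mesenchyme markers 0.944, for cycling cell markers 0.964 and for erythroid markers 0.755. The labels give no batch, date or litter for the numbers, and their source was not tested.

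**Figure D5:**
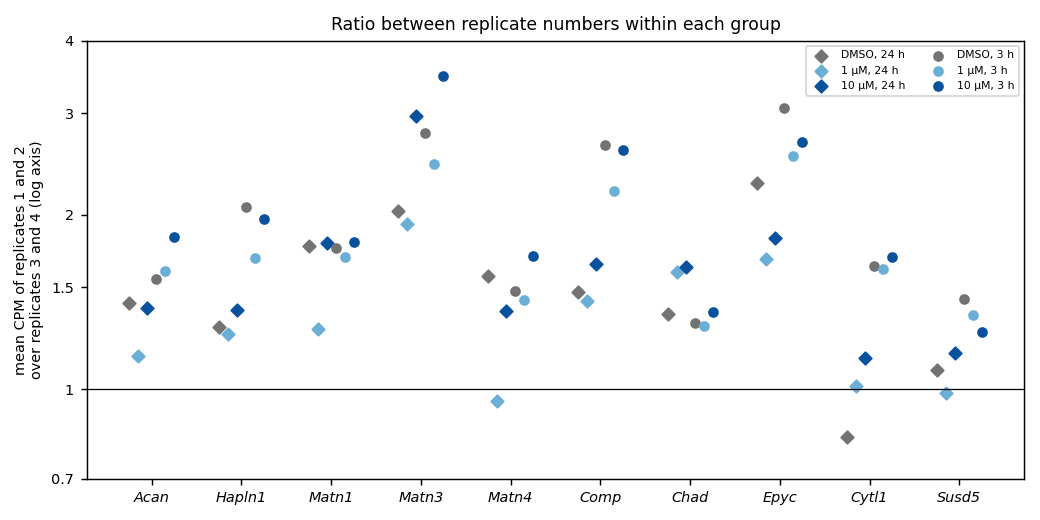
Ratio of the mean CPM of replicates 1 and 2 to that of replicates 3 and 4 on a log axis, for the 10 genes in the 6 groups (diamonds 24 h, circles 3 h). Matn3, Epyc and Comp have the highest ratios, up to 3.47, and Cytl1 and Susd5 have ratios between 0.828 and 1.15 at 24 h.

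Over all 24 libraries the profiles of Acan and Hapln1 were the closest pair of the 10, with a root mean square difference of 0.175 log2 units after each gene was centred on its own mean, and those of Matn3 and Matn4 were the farthest apart at 0.723. Among all other tested genes, the profile nearest to Acan was that of Col2a1 (0.167), followed by Col9a1 (0.179) and Col11a1 (0.183). Hapln1 was nearest to Lect1 (0.194), Matn1 and Comp to the leucine-rich protein Prelp (0.237 and 0.254), and Matn3 and Epyc to C1qtnf3 (0.361 and 0.308). Matn4 was nearest to Dlk1 (0.164) and Chad to Ltbp2 (0.254). Susd5 was nearest to Foxa3, a forkhead transcription factor (0.153), then to Slc26a7 (0.228) and Fbln7 (0.234), and Cytl1 to Lgals3 (0.366), Foxa3 (0.374) and Mfi2 (0.385). The median difference from all genes ran between 0.593 for Matn4 and 1.20 for Matn3, and since all libraries share the time and replicate differences these values are a description only.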

How the data were processed

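Forelimb buds in 6 groups of 4 were measured by poly-A RNA sequencing. Reads were processed with CASAVA 1.8, STAR 2.5, HTSeq 0.6.1 and DESeq2 on mm10, per the submitters' processing notes. The authors deposited raw read counts per gene, FPKM per gene length in bases, and, for each comparison, log2 fold changes with p-values and adjusted p-values. The 5 tables were joined on gene identifier to 25844 genes, with 0 counts that differed between tables, and the 10 columns of the authors' normalized signal averaged by group, as deposited, were not used. FPKM served only to order genes, and strandedness and litter origin are not given in the sources used here.

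Counts were tested with edgeR 4.0.16 (quasi-likelihood with robust dispersion, TMM factors between 0.916 and 1.1, limma 3.58.1, R 4.3.3) after a filter at a count of 10 and a total of 15, with Benjamini-Hochberg adjustment over all tested genes and a threshold of 0.05. Comparisons with control, and of 24 h with 3 h, used their 8 libraries. The 10 µM against 1 µM comparisons and the differences of effects used all 24 libraries. The edgeR steps were tested on simulated counts with the same dispersion for every gene and no difference between replicate numbers. That check does not cover genes with a wider spread, such as Matn3, Epyc and Comp. CPM are counts scaled by the total of the library, at totals between 14165947 and 20823058 counts. The lowest chi-square per degree of freedom between 2 libraries of a group was 4.7, so none was treated as a duplicate.

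Replicate numbers were taken to pair libraries where all 4 same-number correlations of deviations from the group means exceeded 0.1, a link found in the data, since the labels do not explain the numbers. That held for both doses against control at 24 h, for 10 µM against 1 µM at both times and for 24 h against 3 h within each dose. It did not hold for either dose against control at 3 h or for the controls over time. Even where it held, a library did not always correlate best with the library of its own number. Alternatives were other size factors, DESeq2 1.42.0, no filter, a replicate block, a term for replicates 1 and 2 against 3 and 4, fits within those pairs, other sets of libraries, and removal of each library. The split of replicates 1 and 2 from 3 and 4 is not in the labels and follows levels seen in these data. All 10 genes are described in every comparison. Of each list of related genes and cell type markers, up to 4 that passed, and Sox9, Col2a1 and Ihh always, could be named. The 10 genes and the lists were chosen with earlier results of these data known.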

Additional observations from a re-analysis of the deposited data

Results flagged for a closer look

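For 2 of the 10 genes the effect of 10 µM BPDP differed between 24 h and 3 h in a test of that difference (edgeR with Benjamini-Hochberg adjustment, 4 groups of 4 libraries in a fit of 24). Of all 16691 genes tested 0.983% passed in the same direction. Cytl1 had a difference of effects of 1.20 on the log2 scale (edgeR adjusted p = 0.0321), with all 4 libraries with 10 µM above all 4 controls at 24 h and a log2 difference of -0.59 that did not pass at 3 h (0.291). Susd5 had a difference of effects of 0.73 (edgeR adjusted p = 0.0172), from a rise at 24 h and a log2 difference of -0.05 at 3 h. The call of Susd5 held in all 16 removals of 1 library, and that of Cytl1 was lost in most of them. No library stood apart from the other 3 of its group among the 60 combinations of gene and group by Dixon's test. That test can seldom flag a library where a group splits into a high and a low pair, as most did.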

How the results depend on the processing

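The number of the 10 genes that passed moved as follows. With 10 µM at 24 h it was 2, with 3 by DESeq2, 4 under the replicate block, 4 with the term for replicates 1 and 2 against 3 and 4, 0 within replicates 1 and 2, 3 within replicates 3 and 4, 1 in the fit of all 24 libraries and 2 to 4 in the removals of 1 library. With 1 µM at 24 h it was 1, with 2 by DESeq2, 2 under the block, 0 within replicates 1 and 2, 2 in the fit of all 24 libraries and 1 in every removal. With 10 µM at 3 h it was 0, with 1 (Cytl1, lower) under the term for replicates 1 and 2 against 3 and 4. For the controls at 24 h against 3 h it was 8, with 9 by DESeq2 and in the fit of all 24 libraries, 10 with the term for replicates 1 and 2 against 3 and 4 and within replicates 3 and 4, 5 without a filter, 4 within replicates 1 and 2 and 5 to 7 in the removals. For 24 h against 3 h with 10 µM it was 9, with 7 to 9 in the removals and 10 by DESeq2, under the block, with the term, within each pair of replicates and in the fit of 24. With 1 µM it was 10, with 9 without a filter and 7 to 9 in the removals. For 10 µM against 1 µM at 24 h it was 0, with 1 within replicates 3 and 4 and 1 in the fit of those groups alone. For the difference of the 10 µM effects it was 2, with 3 with the term and within replicates 3 and 4 (Acan in addition), 1 without a filter, 1 within replicates 1 and 2 and 1 to 2 in the removals. For that of the 1 µM effects it was 0, with 1 by DESeq2 and 1 within replicates 3 and 4. The cause of these moves was not tested.

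Where replicate numbers did not pair the libraries, the replicate block gave 1 gene with 10 µM at 3 h, Cytl1 (edgeR adjusted p = 0.0139), and 9 for the controls over time, where Epyc passed in addition. Its lowest same-number correlations were 0.0802 with 10 µM at 3 h, 0.0951 with 1 µM at 3 h and 0.0767 for the controls. Where they did, the pairing changed no call other than those given in the results.

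Over all genes, 963 passed with 10 µM at 24 h, against 1645 under the block, 1498 by DESeq2 and 1870 in the fit of 24. With 1 µM at 24 h the counts were 12, 57 by DESeq2 and 95 in the fit of 24, and with 10 µM at 3 h they were 1, 142 without a filter, 447 by DESeq2 and 335 under the block. Among 1920 log2 differences of single genes under the alternatives, 127 changed sign, 0 of them for a gene that passed in either fit, and these came from 33 of 110 combinations of gene and comparison. Of the 1920, 1822 stayed on their side of the threshold, 33 passed in addition and 65 no longer passed. Scaling CPM by TMM changed no mean by over 5.85%.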
